A study of Homo sapiens with 4 samples.

Results

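The primary cilium is a single antenna of microtubules that most resting vertebrate cells grow from the mother centriole. It is built and kept up by intraflagellar transport (IFT), in which trains of IFT-B and IFT-A particles are carried to the tip by kinesin-2 and back to the base by dynein-2. The BBSome, a coat complex named after Bardet-Biedl syndrome, rides on these trains and takes membrane proteins out of the cilium, and the transition zone at the base is the gate through which cargo enters and leaves. Described here are 42 human genes of this machinery: 9 subunits of IFT-B, 6 of IFT-A, the IFT-A adaptor TULP3, 7 of the BBSome, 3 genes of BBSome recruitment and assembly, 3 of kinesin-2, 2 of dynein-2, 10 of the transition zone and OFD1 of the basal body. They were taken by symbol out of 23228 genes in the count tables. The genes were chosen by their known place in the cilium at a time when the PELP1 siRNA comparison of these libraries was already known, so their fold changes are given as a description and no p-value is printed for them.

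The RNA was that of the human glioblastoma line U87 MG, in 2 groups of 2 libraries: cells given siRNA against PELP1 and cells given a control siRNA. All the cells were grown in DMEM with serum, a medium in which many cells keep cycling, were transfected with oligofectamine and were harvested after 72 hours. An siRNA leads the cell to cut an mRNA of matching sequence, and PELP1 is a scaffold protein of nuclear receptor and chromatin complexes. Nothing in the labels says that the 2 libraries of a group came from separate cultures, so an SE or p-value here reflects the scatter of these libraries alone, and that scatter could be technical. The sources used here do not give the sequences of the siRNAs.

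PELP1 (GRCh37 chr17:4573069-4607632, minus strand) checks the labels. It had 15.2 and 17.7 CPM in the PELP1 siRNA libraries, against 74.0 and 78.1 CPM in the control siRNA libraries, where CPM is a gene's count relative to the library size after TMM scaling. The log2 fold change was -2.21 (SE 0.097; adjusted p = 8.32e-14, edgeR quasi-likelihood test, adjusted by Benjamini-Hochberg over 13234 genes). Reads assigned to genes numbered 18670162 to 22858988 per library. The chi-square per gene, which lies near 1 with counting noise alone, was 7.13 within the PELP1 siRNA pair and 2.09 within the control pair. Between libraries of different groups it was 29.8 to 31.5. The line is known from the labels, and the markers that follow do not identify it by themselves. VIM, CD44, FN1, TNC and SPARC, listed as markers of U87 MG, were all abundant. On the same list, GFAP had 24 and 35 counts in PELP1 siRNA libraries and 28 and 29 in control libraries, and S100B and SOX2 had at most 2. Of 13 listed markers of the line, 11 were tested, with a median log2 fold change of -0.28. Among these, 2 were higher (18.2%) and 6 lower (54.5%), against 12.9% and 15.0% of all genes tested. The summed level of the 13 was 15790 and 16241 CPM in PELP1 siRNA libraries and 18977 and 18951 CPM in control libraries. Of 20 markers of other cell types, 9 stayed under 10 counts in every library and CD3E and MOG were at 0. Their summed level, mostly CD68 and COL1A1, was 810 and 905 CPM in PELP1 siRNA libraries and 922 and 905 CPM in control libraries. Of the 11 that were tested, 2 passed: the neuronal marker SNAP25 was lower, with 609 and 600 counts in PELP1 siRNA libraries and 931 and 1089 in control libraries (log2 fold change -0.63, adjusted p = 9.03e-06). The epithelial marker EPCAM was higher, with 33 and 29 counts in PELP1 siRNA libraries and 13 and 20 in control libraries (log2 fold change 1.02, adjusted p = 0.0188). EPCAM did not pass without control library 1 (0.84) or 2 (1.25), without PELP1 siRNA library 1 (0.95) or in DESeq2's Wald test (1.03). The part of these markers in the values below was not tested. FOXJ1, the master regulator of motile cilia, was at 0 in all 4 libraries.

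All 42 cilium genes were expressed and all 42 passed the filter on low counts, the least abundant with 147 counts in its lowest library. At an adjusted p under 0.05 over all genes tested, 16 of the 42 were higher with PELP1 siRNA, 3 were lower and 23 did not pass. Of all genes tested, 12.9% were higher and 15.0% lower. Since the choice of the genes was made with this comparison known, nothing is read from the difference in shares. The same holds for the counts by role below. The median log2 fold change of the 42 genes was 0.16, with 0.00088 over all genes tested. In 23 genes both PELP1 siRNA libraries lay above both control libraries, in 6 both lay below, and in 13 the groups overlapped. With 2 libraries in each group, some unchanged genes also separate by order alone. The share over all genes tested was not counted, so nothing is read from these counts. None of the 19 genes past the threshold overlapped. The 42 levels added up to 1946 and 1840 CPM in the PELP1 siRNA libraries and to 1624 and 1615 CPM in the control siRNA libraries. KIF3B alone made up a large part of these sums, and without it they were 1607 and 1520 CPM in PELP1 siRNA libraries and 1353 and 1340 CPM in control libraries. These are bulk samples, in which fewer cells of a type and less RNA per cell cannot be told apart.

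**Figure D1:**
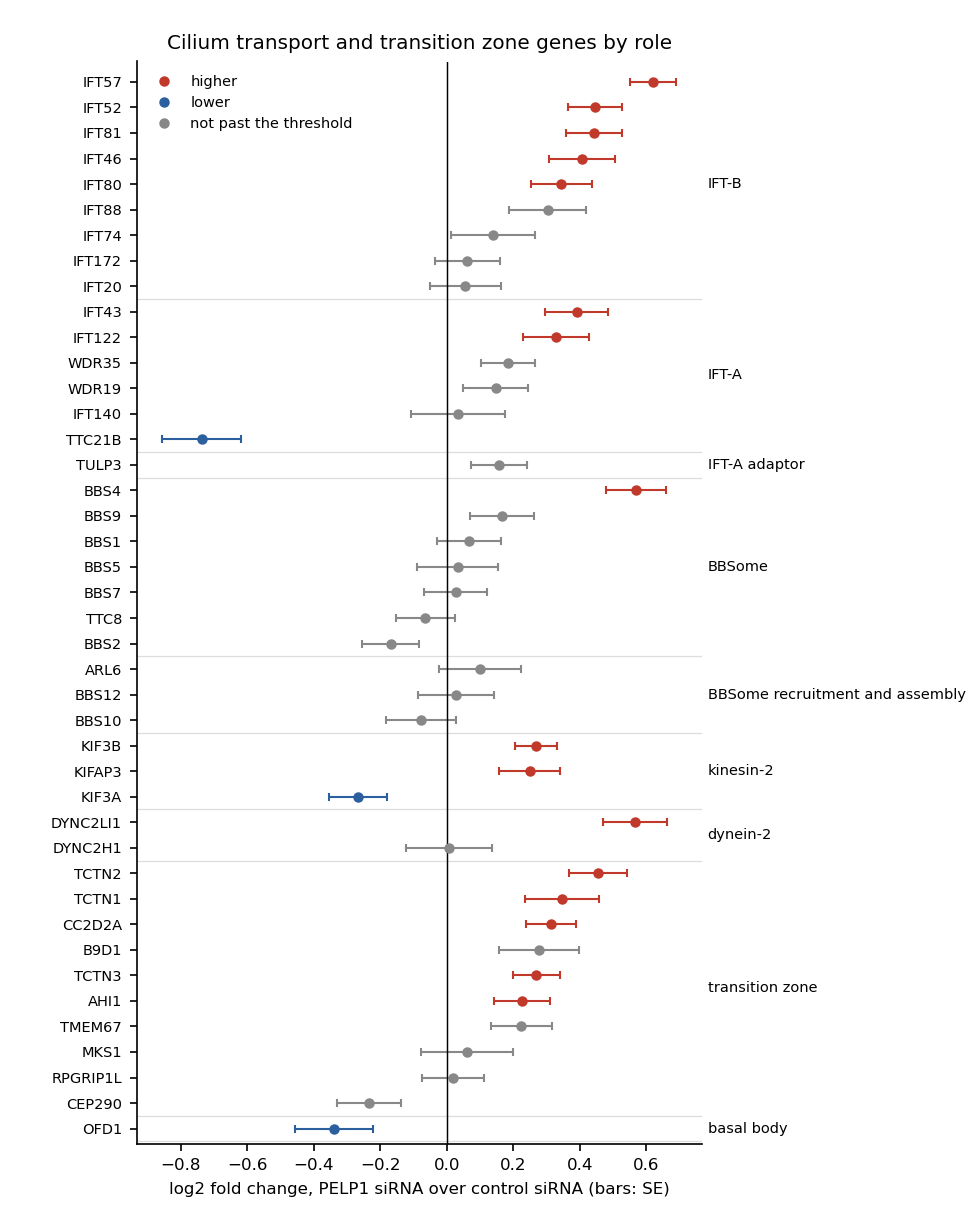
Log2 fold change of each of the 42 cilium genes, PELP1 siRNA over control siRNA, on the horizontal axis, with bars of 1 SE, grouped by role down the page. Red points (16) are past the threshold and higher, blue points (3: TTC21B, KIF3A and OFD1) are past it and lower, and grey points (23) are not past it; IFT-B and the transition zone hold 5 red points each, the BBSome 1.

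IFT-B is the particle of outward transport, which carries tubulin and other building material to the tip. Of its 9 subunits here, 5 were higher with PELP1 siRNA, none was lower and 4 did not pass, with a median log2 fold change of 0.34. The summed IFT-B level was 458 and 438 CPM in PELP1 siRNA libraries and 339 and 337 CPM in control libraries. IFT57 (GRCh37 chr3:107879659-107941282, minus strand), a peripheral subunit close to the kinesin, had 140.0 and 139 CPM with PELP1 siRNA and 88.4 and 93.1 CPM with control siRNA, a log2 fold change of 0.62 (SE 0.070). It showed the largest rise of the 42 genes, and its 2 libraries per group lay close together. IFT52 (chr20:42219577-42275939, plus strand), a core subunit that holds the particle together, had 70.2 and 67.3 CPM in PELP1 siRNA libraries and 48.6 and 52.4 CPM in control libraries (log2 fold change 0.44, SE 0.081). IFT81 (chr12:110562140-110656598, plus strand), which binds tubulin together with IFT74, had 66.0 and 58.5 CPM with PELP1 siRNA and 45.4 and 46.2 CPM with control siRNA (log2 fold change 0.44, SE 0.085). Its partner IFT74 did not pass, with 14.5 and 11.7 CPM in PELP1 siRNA libraries and 12.0 and 11.9 CPM in control libraries. The tubulin-binding pair thus gave overlapping groups for IFT74 and separate groups for IFT81.

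The remaining IFT-B subunits moved less. IFT46, which carries outer dynein arms in algae and is a core subunit, had 25.6 and 25.7 CPM with PELP1 siRNA and 19.0 and 19.7 CPM with control siRNA (log2 fold change 0.41, SE 0.098). IFT80, a peripheral subunit mutated in a skeletal ciliopathy, had 69.4 and 60.6 CPM in PELP1 siRNA libraries and 55.1 and 47.4 CPM in control libraries (log2 fold change 0.34, SE 0.091). In IFT80, 27.6% of exon bases are shared with another annotated gene on the same strand, so that its reads may be incompletely counted. IFT88, the core subunit whose loss in the mouse gives short or no cilia, had 17.9 and 17.0 CPM with PELP1 siRNA and 12.9 and 15.3 CPM with control siRNA. Its log2 fold change of 0.30 (SE 0.115) did not pass the threshold, although its groups did not overlap. It passed with upper quartile scaling (0.31), scaling by total counts (0.35), no filter (0.29) or a length and GC trend removed (0.24). IFT172, the large peripheral subunit at the turnaround point of the trains, gave 37.1 and 40.3 CPM with PELP1 siRNA and 40.3 and 33.9 CPM with control siRNA, and IFT20, which also sits at the Golgi, gave 16.8 and 17.8 CPM with PELP1 siRNA and 16.7 and 16.6 CPM with control siRNA. Neither of these subunits passed. Of the 5 risen subunits, IFT57 and IFT81 passed the threshold whichever library was left out. IFT46 did not pass without control library 1 (log2 fold change 0.38) or 2 (0.43), IFT52 did not pass without control library 1 (0.39), and IFT80 did not pass without control library 2 (0.24).

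IFT-A is the particle of return transport and of membrane protein entry. Here its subunits split, with 2 of 6 higher, 1 lower and 3 not past the threshold. TTC21B (GRCh37 chr2:166713985-166810361, minus strand), a long repeat protein at the edge of IFT-A that is mutated in kidney and skeletal ciliopathies, showed the largest fall of the 42 genes. It had 16.7 and 12.4 CPM in PELP1 siRNA libraries and 24.2 and 24.5 CPM in control libraries, a log2 fold change of -0.74 (SE 0.119), and its level fell by 40.0%. IFT43 (chr14:76368479-76550928, plus strand), a small subunit, had 36.8 and 42.1 CPM with PELP1 siRNA and 30.5 and 29.7 CPM with control siRNA (log2 fold change 0.39, SE 0.094). IFT122, a core subunit needed for the entry of membrane receptors, had 26.6 and 24.8 CPM with PELP1 siRNA and 19.9 and 20.9 CPM with control siRNA (log2 fold change 0.33, SE 0.099). The 3 remaining subunits did not pass: the log2 fold changes were 0.18 (SE 0.081) for WDR35, 0.15 (SE 0.098) for WDR19 and 0.03 (SE 0.140) for IFT140. WDR35, the most abundant of the 6 by reads, had 73.0 and 65.2 CPM in PELP1 siRNA libraries and 59.4 and 62.3 CPM in control libraries. TULP3, the adaptor that hands receptors to IFT-A, also did not pass, with 47.3 and 47.2 CPM in PELP1 siRNA libraries and 43.1 and 41.7 CPM in control libraries (log2 fold change 0.16, SE 0.085).

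The lower level of TTC21B relative to IFT122 can be read within each library, free of any scaling. The direction of each gene by itself rests on the scaling. For every 100 counts of IFT122 there were 62.9 and 50.2 counts of TTC21B in PELP1 siRNA libraries and 122 and 117 in control libraries. The pair was chosen after its values were seen, and the ratio is of counts, not of proteins. TTC21B passed the threshold whichever library was left out. IFT43 did not pass without control library 1 (log2 fold change 0.41) or 2 (0.37), and IFT122 did not pass without control library 1 (0.29) or 2 (0.37) or in DESeq2's Wald test (0.33).

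In the BBSome, 1 of 7 subunits, BBS4, was higher and 6 did not pass, and the median log2 fold change was 0.032. BBS4 (GRCh37 chr15:72978520-73030816, plus strand), the subunit that links the complex to centriolar satellites and joins it late in assembly, had 49.0 and 45.8 CPM in PELP1 siRNA libraries and 33.2 and 30.8 CPM in control libraries. Its log2 fold change was 0.57 (SE 0.090), a level 48.4% higher, and it passed the threshold whichever library was left out. BBS2, part of the head of the complex, had 47.7 and 42.9 CPM with PELP1 siRNA and 50.1 and 51.9 CPM with control siRNA (log2 fold change -0.17, SE 0.086). The other subunits lay between -0.07 for TTC8 and 0.17 for BBS9 on the log2 scale, with BBS1 at 0.07, BBS5 at 0.03 and BBS7 at 0.03. In BBS1, 54.0% of exon bases are shared with other annotated genes on the same strand and 25.0% with genes on the opposite strand, so that its value may be off. The value of BBS5 has a like limit, with 23.5% of exon bases shared on the same strand. The summed BBSome level was 243 and 231 CPM in PELP1 siRNA libraries and 222 and 225 CPM in control libraries.

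The 3 genes that act on the BBSome from outside did not pass either. ARL6, the small GTPase that recruits the coat to membranes, had 17.6 and 14.3 CPM with PELP1 siRNA and 16.2 and 13.7 CPM with control siRNA. BBS10 and BBS12 belong to the chaperonin that folds BBSome subunits, and their log2 fold changes were -0.08 and 0.03. In all 3 the groups overlapped.

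**Figure D2:**
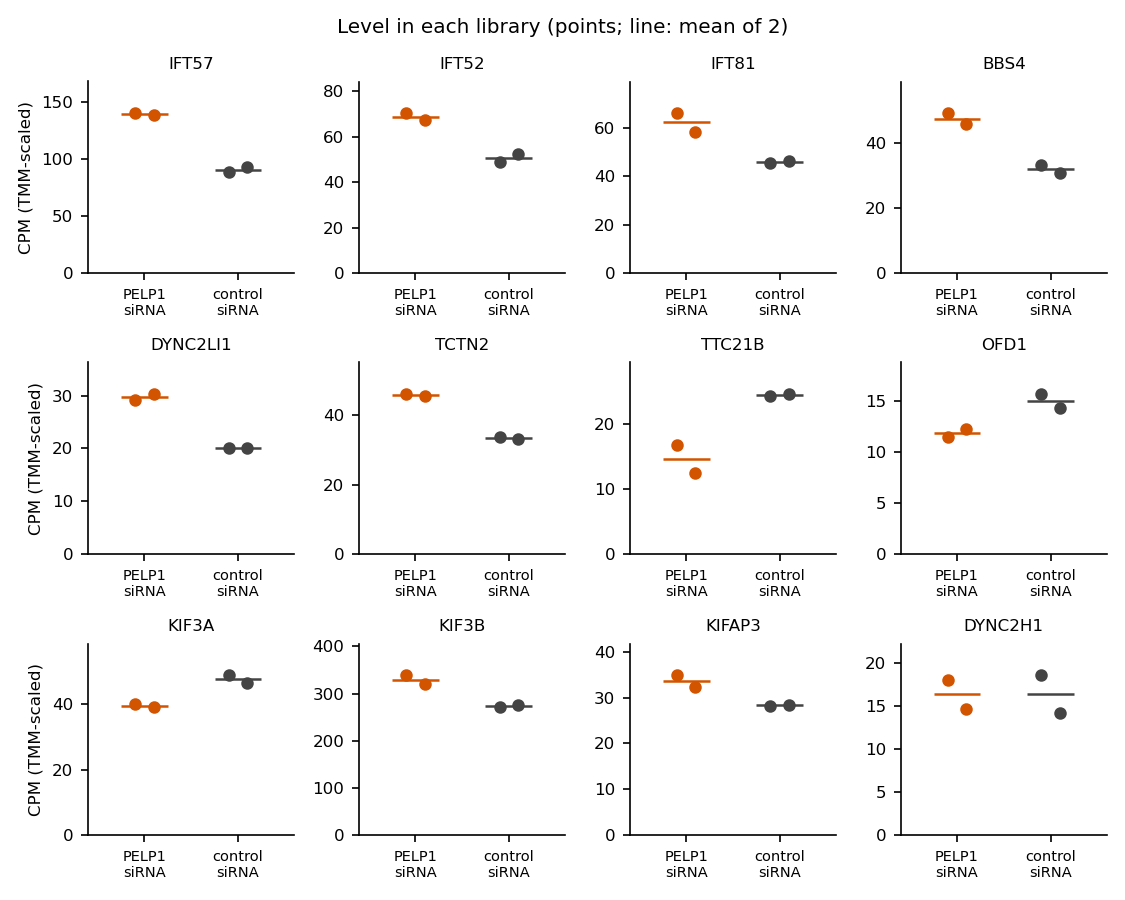
Level in CPM (vertical axes, from 0) in each of the 2 PELP1 siRNA libraries and the 2 control siRNA libraries, as points, with the mean as a line, for 12 cilium genes. IFT57, IFT52, IFT81, BBS4, DYNC2LI1, TCTN2, KIF3B and KIFAP3 lie above their controls in both libraries, TTC21B, OFD1 and KIF3A below them, and DYNC2H1 overlaps.

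Kinesin-2, the motor of outward transport, is a trimer of 2 motor subunits, KIF3A with KIF3B or KIF3C, and the cargo-binding subunit KIFAP3. All 3 of its genes here passed the threshold, and not in the same direction. KIF3A (GRCh37 chr5:132028320-132073330, minus strand) was lower, with 40.0 and 39.1 CPM in PELP1 siRNA libraries and 48.8 and 46.5 CPM in control libraries (log2 fold change -0.27, SE 0.086). KIF3B (chr20:30865454-30922814, plus strand) was higher, with 339 and 320.5 CPM in PELP1 siRNA libraries and 272 and 276 CPM in control libraries (log2 fold change 0.27, SE 0.063). KIFAP3 (chr1:169890467-170054349, minus strand) was higher, with 34.8 and 32.4 CPM in PELP1 siRNA libraries and 28.2 and 28.4 CPM in control libraries (log2 fold change 0.25, SE 0.093). These changes are among the smallest of the 19 past the threshold. Their sizes moved little when a control library was left out, but the calls were lost, in fits that also called fewer of all genes. None of the 3 genes passed without control library 1, where the log2 fold changes were -0.23 for KIF3A, 0.26 for KIF3B and 0.24 for KIFAP3. None of them passed without control library 2 either, at -0.30, 0.28 and 0.25 in the same order, and KIFAP3 did not pass without PELP1 siRNA library 1 (0.20). KIF3A did not pass with scaling by total counts (-0.22) or in DESeq2's Wald test (-0.27), and KIFAP3 did not pass without a filter (0.24), in DESeq2's Wald test (0.25) or with a replicate block (0.25).

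KIF3C, which pairs with KIF3A in place of KIF3B and is best known from neurons, is not among the 42 genes and was named from a list of other ciliary motors. It had 92.5 and 95.2 CPM in PELP1 siRNA libraries and 189 and 183 CPM in control libraries (log2 fold change -0.99, SE 0.068, adjusted p = 1.77e-10). Within each library, 100 counts of KIF3B stood beside 27.3 and 29.7 counts of KIF3C with PELP1 siRNA and 69.5 and 66.3 with control siRNA. For KIF3A the same figure was 11.8 and 12.2 in PELP1 siRNA libraries and 18.0 and 16.9 in control libraries. For KIFAP3 it was 10.3 and 10.1 in PELP1 siRNA libraries and 10.4 and 10.3 in control libraries. Against KIF3B, both other motor subunits were thus lower in each PELP1 siRNA library than in each control library, while the ratio of the cargo-binding subunit spanned 10.1 to 10.4 over all 4.

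Dynein-2 drives the return to the base. DYNC2LI1 (GRCh37 chr2:44001178-44037149, plus strand), its light intermediate chain, had 29.2 and 30.2 CPM in PELP1 siRNA libraries and 20.1 and 20.0 CPM in control libraries, a log2 fold change of 0.57 (SE 0.096). It passed the threshold whichever library was left out. DYNC2H1 (chr11:102980139-103350591, plus strand), the heavy chain that holds the motor itself, did not pass, with 18.0 and 14.6 CPM in PELP1 siRNA libraries and 18.5 and 14.1 CPM in control libraries (log2 fold change 0.01, SE 0.129). Its libraries differed more within each group than the group means did. For every 100 counts of DYNC2LI1 there were 61.6 and 48.4 counts of DYNC2H1 with PELP1 siRNA and 92.1 and 70.6 with control siRNA. TCTEX1D2, a light chain outside the 42 genes, had 12.0 and 14.9 CPM in PELP1 siRNA libraries and 8.10 and 8.70 CPM in control libraries (log2 fold change 0.67, adjusted p = 5.74e-04). WDR34, an intermediate chain, had 113 and 137 CPM in PELP1 siRNA libraries and 104 and 105 CPM in control libraries (log2 fold change 0.25, adjusted p = 0.0204), and it did not pass without PELP1 siRNA library 2 (0.11) or without control library 1 (0.25) or 2 (0.26).

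**Figure D3:**
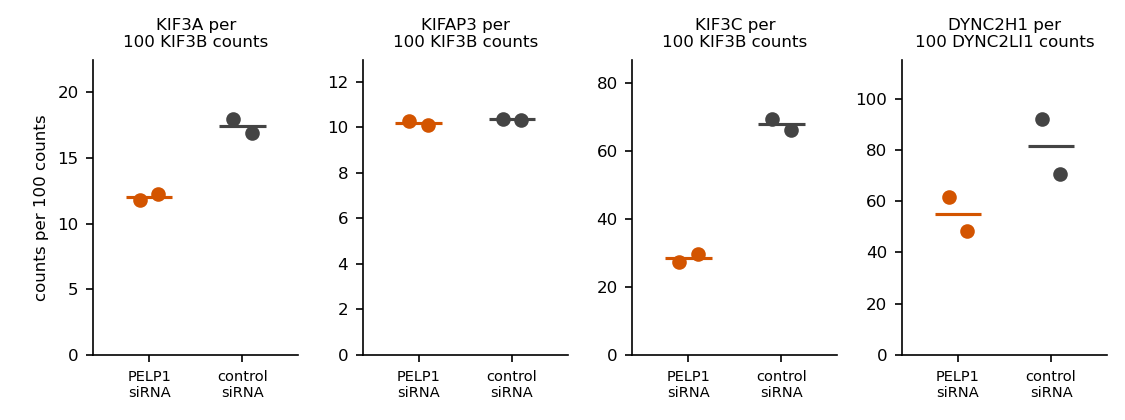
Counts of a motor gene per 100 counts of its partner within each library (vertical axes, from 0; points are libraries, lines the mean of 2), for PELP1 siRNA and control siRNA. KIF3A and KIF3C stood lower against KIF3B with PELP1 siRNA, KIFAP3 stood at 10.1 to 10.4 in all 4 libraries, and DYNC2H1 stood lower against DYNC2LI1.

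The transition zone is built of the MKS module, in which tectonics, B9 proteins and membrane proteins form the gate, and of scaffolds such as CEP290 and RPGRIP1L. Of its 10 genes here, 5 were higher with PELP1 siRNA, none was lower and 5 did not pass, with a median log2 fold change of 0.25. All 3 tectonics were among the higher ones. TCTN2 (GRCh37 chr12:124155657-124192946, plus strand), a membrane tectonic, had 46.0 and 45.6 CPM in PELP1 siRNA libraries and 33.6 and 33.3 CPM in control libraries (log2 fold change 0.45, SE 0.087). TCTN3 (chr10:97419580-97453900, minus strand), the most abundant of the tectonics per length, had 103 and 104 CPM in PELP1 siRNA libraries and 86.7 and 85.4 CPM in control libraries (log2 fold change 0.27, SE 0.071). TCTN1 (chr12:111051832-111101236, plus strand), the secreted tectonic first described in Hedgehog signalling of the mouse, had 20.3 and 17.7 CPM in PELP1 siRNA libraries and 15.4 and 14.6 CPM in control libraries (log2 fold change 0.34, SE 0.111). The libraries of TCTN2 and TCTN3 lay close together within each group, and those of TCTN1 less so.

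CC2D2A, a scaffold of the MKS module, had 102 and 92.0 CPM in PELP1 siRNA libraries and 78.9 and 77.5 CPM in control libraries (log2 fold change 0.31, SE 0.076). AHI1, a Joubert syndrome protein that binds the module, had 84.6 and 71.2 CPM in PELP1 siRNA libraries and 67.9 and 65.4 CPM in control libraries (log2 fold change 0.23, SE 0.084). PELP1 siRNA library 2 of AHI1 lay only a little above its controls. The genes that did not pass were B9D1, a B9 protein (log2 fold change 0.28, SE 0.120), the receptor-like membrane protein TMEM67 (0.22, SE 0.092), the B9 protein MKS1 (0.06, SE 0.137), the scaffold RPGRIP1L (0.02, SE 0.092) and CEP290 (-0.23, SE 0.096). CEP290, which ties the microtubules to the membrane, had 23.8 and 22.7 CPM with PELP1 siRNA and 26.8 and 27.9 CPM with control siRNA. It was the only one of the 10 with a negative value. In B9D1, 29.4% of exon bases overlap genes on the opposite strand. The sources used here give no strand setting of the counting, so its value may be off.

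OFD1 (GRCh37 chrX:13752862-13796074, plus strand), a protein of the distal centriole and of centriolar satellites, was lower, with 11.4 and 12.2 CPM in PELP1 siRNA libraries and 15.6 and 14.3 CPM in control libraries (log2 fold change -0.34, SE 0.117). Of these 6 genes past the threshold, TCTN2 passed whichever library was left out. Without control library 1 the log2 fold changes of the others were 0.38 for TCTN1, 0.28 for TCTN3, 0.32 for CC2D2A, 0.25 for AHI1 and -0.28 for OFD1, and none passed. Without control library 2 they were 0.31, 0.26, 0.30, 0.20 and -0.40 in the same order, and none passed. Without PELP1 siRNA library 1, TCTN1 (0.25), AHI1 (0.10) and OFD1 (-0.29) did not pass. In DESeq2's Wald test TCTN1 (0.34), AHI1 (0.22) and OFD1 (-0.34) did not pass, OFD1 did not pass with scaling by total counts (-0.29), and AHI1 did not pass with limma-voom (0.22), a filter at 5 CPM (0.22) or a replicate block (0.22).

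Levels can be compared between genes only per length of transcript, and are given here as mean CPM per kb of the canonical transcript. KIF3B stood highest of the 42 genes on this scale, at 53.9 with PELP1 siRNA and 44.7 with control siRNA. IFT43 (48.3 with PELP1 siRNA, 36.9 with control siRNA), TCTN3 (41.2 and 34.2), IFT57 (45.6 and 29.7) and IFT52 (39.2 and 28.8) followed. The lowest was DYNC2H1, the longest transcript of the set, at 1.19 in both groups, and IFT140 stood next to it at 1.54 with PELP1 siRNA and 1.51 with control siRNA. Subunits of the same complex therefore differed widely in transcript level. Within kinesin-2, KIF3B stood at 53.9, KIFAP3 at 11.4 and KIF3A at 6.27 CPM per kb with PELP1 siRNA, and at 44.7, 9.58 and 7.55 with control siRNA. Within dynein-2, DYNC2LI1 stood at 21.2 with PELP1 siRNA and 14.4 with control siRNA, far above the heavy chain. TTC21B, at 2.69 with PELP1 siRNA and 4.49 with control siRNA, ranked among the lower levels in both groups. These levels rest on 1 transcript model per gene and do not count isoforms.

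**Figure D4:**
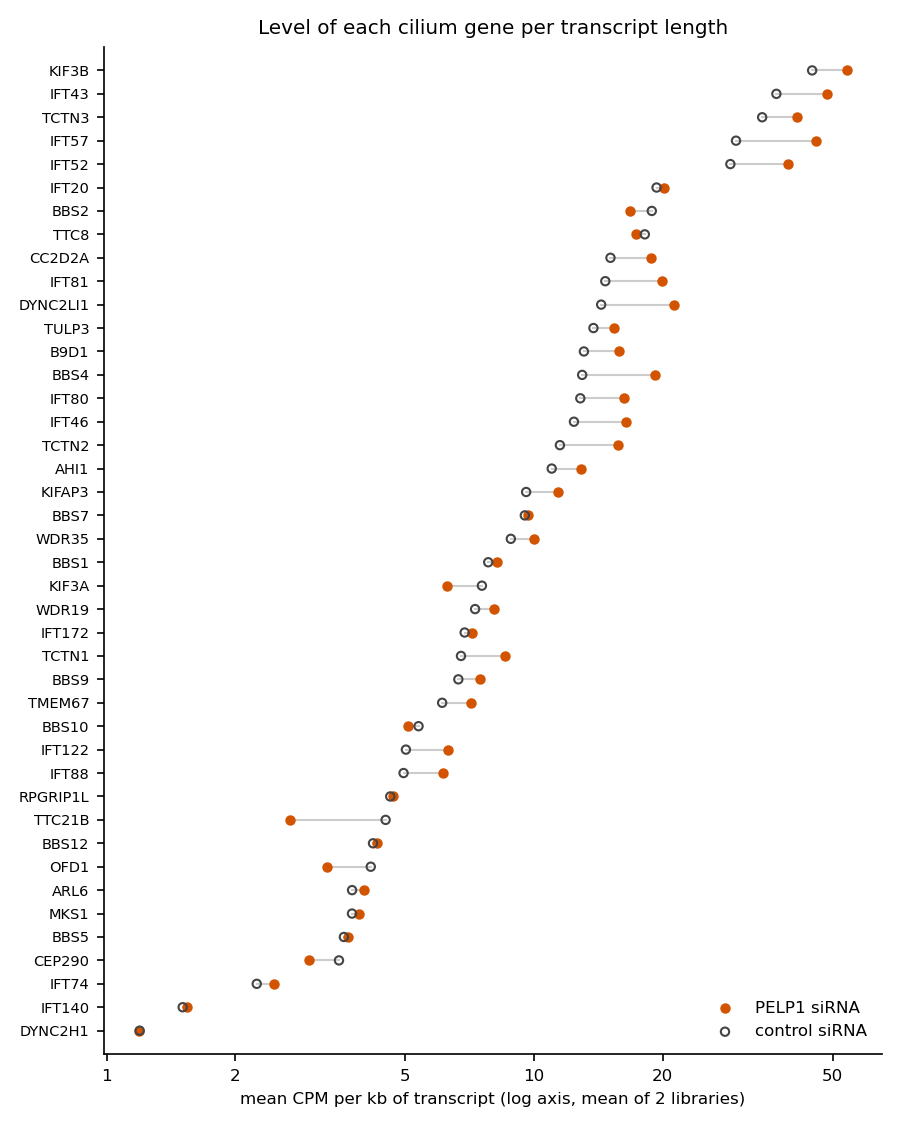
Mean level of each of the 42 cilium genes in CPM per kb of canonical transcript (horizontal log axis, mean of 2 libraries), with filled points for PELP1 siRNA and open points for control siRNA, ordered by the control level. KIF3B is at the top (53.9 with PELP1 siRNA, 44.7 with control siRNA) and DYNC2H1 at the bottom (1.19 in both), and TTC21B has the widest gap to the left.

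Cilium genes often encode long scaffold proteins from many exons. The canonical transcripts of the 42 genes had a median of 18.5 exons, against 9 over all tested genes with a model, at nearly the same median length (3468 and 3408 bases). Their median GC content was 42.5%, against 48.0%, and their median 3' UTR was 652 bases, against 1379.5. An earlier look at these same fold changes had picked out 2 words of 7 bases, CTCAGTT and GCCTTGA, as frequent in the 3' UTRs of genes lower with PELP1 siRNA, so their presence among lower genes is no finding. Either word, on the transcript strand, occurred in the 3' UTR of 7 of the 42 cilium genes (16.7%) and of 25.4% of 11048 tested genes with a 3' UTR model. Among the 42 a word stood in 2 of the 3 lower genes, 2 of the 16 higher and 3 of the 23 that did not pass. Over all tested genes with a 3' UTR model it stood in 42.4% of those lower, 18.8% of those higher and 22.9% of those that did not pass. The words were picked from these same genes, and the shares were not tested. The sites in the 2 lower and 2 higher genes are printed as examples, with the word in capitals and the transcript strand of GRCh37:
KIF3A, chr5:132031537-132031565, minus strand: gctaaatactgCTCAGTTatctttgcctg
TTC21B, chr2:166730830-166730858, minus strand: ttaaagacagaGCCTTGAtctgccgccca
KIF3B, chr20:30920772-30920800, plus strand: taactcagctgCTCAGTTcccagggcaca
KIF3B, chr20:30920745-30920773, plus strand: gactcaggtggGCCTTGAgttatatttta
TCTN3, chr10:97423272-97423300, minus strand: agttctttctcCTCAGTTtccaaagtaaa
KIF3A and TTC21B were lower, while KIF3B, which holds both words, and TCTN3 were higher. The third lower gene, OFD1, held neither word. IFT74, MKS1 and RPGRIP1L each held a word and did not pass the threshold. A match of 7 bases is a description and no target site.

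Many ciliary genes of worms and mammals are driven by RFX factors through an X-box, an inverted repeat near the start of transcription. It was searched here as GTTNC, 2 to 4 bases of any kind, then GNAAC, which reads alike on both strands, in RefSeq windows of GRCh38.p14 from 250 bases before to 50 after each start. Of 38 cilium genes with a window, 3 held it (7.9%), against 1.94% of 9161 tested genes and 2.03% of 27305 windows in all. Those 3 sites are printed as the clearest copies of the motif among the 42 genes, with the motif in capitals:
ARL6, chr3:97764726-97764755, plus strand: aagctcctGTTGCCAAGGGAACggtgcctg
TCTN1, chr12:110614121-110614149, plus strand: ctgtcgcgGTTGCCGGGCAACgcgctgtc
TCTN3, chr10:95694122-95694150, minus strand: cactgacgGTTGCCAGGCAACggaggcac
TCTN1 and TCTN3 were higher with PELP1 siRNA and ARL6 did not pass. The shorter word GTTGCC, one arm of the motif, on either strand and also counted where it lies in a full X-box, stood in the windows of 17 of the 38 genes (44.7%), against 12.6% of tested genes. Among the cilium genes it stood in 6 of 15 that were higher (40.0%), 1 of 3 that were lower and 10 of 20 that did not pass (50.0%), and the full X-box in 2 of 15, 0 of 3 and 1 of 20. Over all tested genes with a window the arm stood in 15.5% of those higher, 10.2% of those lower and 12.6% of those that did not pass, and the full X-box in 2.99%, 1.34% and 1.88%. These shares are a description and were not tested. Such arms in 4 higher genes, 1 lower gene and 2 genes that did not pass follow, again with the match in capitals:
DYNC2LI1, chr2:43774019-43774048, plus strand: cgtcgctcccatGGCAACccagaaggcctc
IFT122, chr3:129440200-129440229, plus strand: ccgcgcatgtacGTTGCCaggggtaacgca
IFT46, chr11:118566110-118566139, minus strand: tttatcagccgcGTTGCCacccatagccgc
IFT81, chr12:110124345-110124374, plus strand: ggcctagcaaccGTTGCCaaggagctcgac
OFD1, chrX:13734663-13734692, plus strand: cggccggtgctgGGCAACcaagctcatgcg
BBS1, chr11:66510624-66510653, plus strand: agggcggggccgGTTGCCaggacgacgcct
TULP3, chr12:2890839-2890868, plus strand: gtgtggaacgcgGTTGCCaggaggcgggac
In DYNC2LI1 and OFD1 the capitals are the arm read on the opposite strand. No full X-box was found in the windows of the 3 lower genes. A match says nothing of binding in these cells.

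Of the RFX factors themselves, 8 of 10 were tested and RFX8 was lower (5.08 and 6.01 CPM with PELP1 siRNA, 10.4 and 9.78 CPM with control siRNA, log2 fold change -0.86, adjusted p = 1.03e-04). RFX5 and RFX7, those with the most reads, had log2 fold changes of 0.01 and 0.01 (adjusted p = 0.936 and 0.926), and RFX3, a regulator of ciliary genes in the mouse, had 83 and 68 counts with PELP1 siRNA and 69 and 75 with control siRNA.

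Other genes of the pathway were taken from 6 lists made with earlier results of these data known but not for how their genes moved: further IFT and BBSome subunits, motors, transition zone proteins, distal appendages and membrane traffic. Of 90 listed, 86 were tested, 25 were higher (29.1%), 6 were lower (6.98%) and 55 did not pass, with a median log2 fold change of 0.12. Of all genes tested, 12.9% were higher and 15.0% lower. Since the lists were made with earlier results known, nothing is read from the difference in shares, here or in the counts by list that follow. The IFT-B subunit IFT22, counted under its older symbol RABL5, had 56.2 and 60.8 CPM in PELP1 siRNA libraries and 38.2 and 34.4 CPM in control libraries (log2 fold change 0.69, adjusted p = 2.88e-06). IFT27, a small GTPase of the same particle, was also higher (0.42, adjusted p = 0.00391), though it did not pass without control library 1 (0.42) or 2 (0.42). Around the BBSome, the small subunit BBIP1 had 35.8 and 38.0 CPM with PELP1 siRNA and 25.8 and 27.9 CPM with control siRNA (0.46, adjusted p = 6.76e-04), and did not pass without control library 1 (0.40). CCDC28B, a modifier of Bardet-Biedl syndrome, had 15.7 and 14.8 CPM with PELP1 siRNA and 7.94 and 8.26 CPM with control siRNA (0.91, adjusted p = 6.29e-06). LZTFL1, which holds the BBSome back from the cilium, was lower (-0.32, adjusted p = 0.00962) and did not pass without control library 1 (-0.29) or 2 (-0.34).

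At the transition zone, 8 of 24 further genes were higher and 1 was lower. ARMC9 (log2 fold change 0.37, adjusted p = 7.65e-04; 0.35 and not past the threshold without control library 2) and TMEM237 (0.34, adjusted p = 0.00151; 0.29 and not past it without control library 1) were higher, and ANKS6 of the inversin compartment was lower (-0.34, adjusted p = 0.00596; not past it without control library 1, at -0.35, or 2, at -0.33). Of 20 genes of distal appendages and the basal body, 4 were higher and 1 lower. CEP89 was higher (0.42, adjusted p = 0.00145; not past it without control library 1, at 0.41, or 2, at 0.42), as was CEP19 (0.47, adjusted p = 0.00162; 0.40 without control library 2), and SDCCAG8 was lower (-0.45, adjusted p = 0.0067; not past it without control library 1, at -0.48, or 2, at -0.42). In membrane traffic, 4 of 19 were higher and 1 lower. ARL3, the GTPase that releases lipidated cargo, had 92.9 and 102 CPM with PELP1 siRNA and 71.9 and 71.3 CPM with control siRNA (0.44, adjusted p = 1.02e-04), and TUB, the relative of TULP3, had 22.7 and 22.9 CPM with PELP1 siRNA and 14.8 and 15.7 CPM with control siRNA (0.58, adjusted p = 1.77e-04). RAB10 was lower (-0.20, adjusted p = 0.0208) and did not pass without control library 1 (-0.24) or 2 (-0.16) or with scaling by total counts (-0.15), and SDCCAG8 did not pass in DESeq2's Wald test (-0.45). The kinesin of the ciliary tip, KIF7, was lower (-0.58, adjusted p = 9.38e-05).

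**Figure D5:**
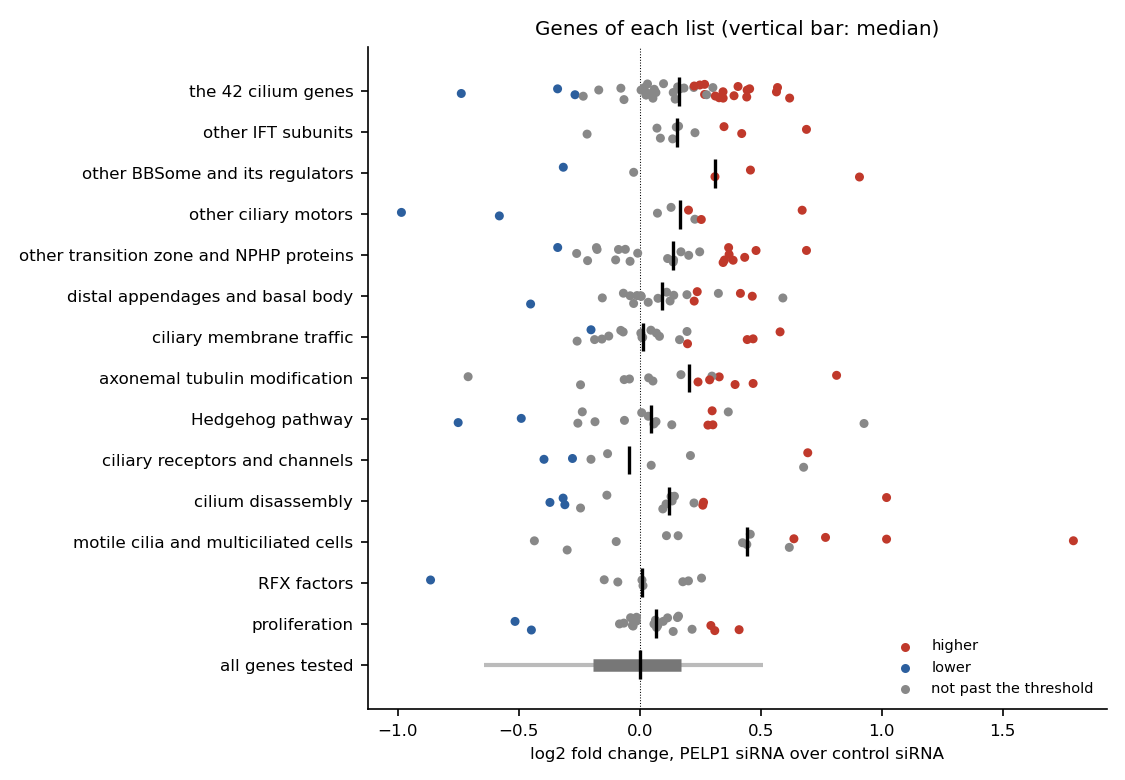
Log2 fold change (horizontal axis, PELP1 siRNA over control siRNA) of every tested gene in each list, down the page, with the median as a black bar; red is past the threshold and higher, blue past it and lower, grey not past it. The bottom row shows all 13234 genes tested, the thick bar from the lower to the upper quartile and the thin bar over the 5 to 95 percent range. The 42 genes have a median of 0.16, the motile cilium list 0.44 and the RFX factors 0.011. The 13 tested motile cilium genes had a median level of 1.93 CPM, against 30.9 CPM for the 42, so most of their fold changes rest on few counts.

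Transcripts of pathways that the cilium serves were counted as well, while neither cilia nor signalling was measured here. In the Hedgehog pathway, whose receptors act in the cilium, 3 of 16 tested genes were higher and 2 lower, and SMO, the transducer, had 0 counts in both PELP1 siRNA libraries and 1 in each control library. GLI1, a target of the pathway, had 48 and 63 counts with PELP1 siRNA and 45 and 48 with control siRNA, and PTCH1, another target, had 97 and 86 with PELP1 siRNA and 118 and 106 with control siRNA (log2 fold change -0.18, adjusted p = 0.466). SMO, GLI1 and PTCH1 were named after their values were seen. PRKACA, the kinase subunit that restrains the pathway, was higher (0.30, adjusted p = 0.00149; not past the threshold without control library 1, at 0.31, or 2, at 0.28), and IQCE was higher (0.28, adjusted p = 0.0129; not past it without control library 1, at 0.32, or 2, at 0.24). EVC, which with IQCE marks a zone above the transition zone, was lower, with 189.7 and 151 CPM in PELP1 siRNA libraries and 249 and 229.7 CPM in control libraries (-0.49, adjusted p = 1.89e-04), and so was the coreceptor BOC (-0.75, adjusted p = 0.00138).

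Of 8 tested receptors and channels of the cilium, PDGFRA was higher (0.69, adjusted p = 0.0218; 0.41 without control library 2 and 0.60 without PELP1 siRNA library 1, not past the threshold in either), and PKD1 (-0.40, adjusted p = 0.00619; -0.29 without control library 1, not past it) and ADCY3 (-0.28, adjusted p = 0.0316; -0.38 without control library 1 and -0.16 without control library 2, not past it) were lower. ADCY3 also did not pass with scaling by total counts (-0.23), in DESeq2's Wald test (-0.28) or with a length and GC trend removed (-0.17), and PDGFRA did not pass in DESeq2's Wald test (0.69). Of 14 genes that make or modify axonemal tubulin, 6 were higher and none lower. TUBA1A, an alpha tubulin with close paralogs, had 111 and 113 CPM with PELP1 siRNA and 62.9 and 64.7 CPM with control siRNA (0.81, adjusted p = 1.39e-08), and AGBL5, which trims branch points of tubulin glutamylation, was higher (0.39, adjusted p = 3.44e-04; 0.34 without control library 1, not past it).

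Markers of motile cilia and of the cell cycle are given for the whole lists, and their part in the values above was not tested. Of 26 motile cilium genes found, 4 were at 0 in every library, FOXJ1 and DNAH9 among them, and 13 were tested, of which 4 were higher and none lower. The median level of the 13 was 1.93 CPM, so most of these values rest on few counts. The summed level of the 26 was 38.1 and 39.5 CPM in PELP1 siRNA libraries and 27.7 and 28.3 CPM in control libraries, much of it from PIFO (counted as C1orf88), which had 10.7 and 11.4 CPM with PELP1 siRNA and 4.28 and 6.52 CPM with control siRNA (log2 fold change 1.02, adjusted p = 4.59e-05). PIFO is known from the base of primary cilia and their disassembly. RSPH4A, a radial spoke protein, had 40 and 12 counts with PELP1 siRNA and 8 and 8 with control siRNA (1.79, adjusted p = 0.00779), and without PELP1 siRNA library 1 it was at 0.72 and did not pass. RSPH4A met the filter on low counts only through the PELP1 siRNA libraries, so nothing is read from its rise. Of 14 genes of cilium disassembly, 3 were higher and 3 lower. NEK2 was higher (0.26, adjusted p = 0.0143; not past the threshold without control library 1, at 0.24, or 2, at 0.28), while PLK1 (-0.32, adjusted p = 7.40e-04; not past it without control library 1, at -0.32, or 2, at -0.32) and TCHP, a keratin-binding inhibitor of cilium growth (-0.37, adjusted p = 0.00129; -0.33 without control library 2, not past it), were lower. Of 22 proliferation genes, 3 were higher and 2 lower, with a median log2 fold change of 0.067, and their summed level was 4208 and 4166 CPM in PELP1 siRNA libraries and 4055 and 4089 CPM in control libraries. CCNB2 was higher (0.41, adjusted p = 1.39e-04) and MCM4 was lower (-0.52, adjusted p = 1.58e-06).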

How the data were processed

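RNA was measured in 4 libraries of U87 MG cells, 2 with PELP1 siRNA and 2 with control siRNA. The deposited values are whole-number read counts per gene symbol, without normalization. Per the labels' protocols, the libraries were Illumina TruSeq Total RNA, read as 50 bp single ends. Per the submitters' processing notes, the authors ran TopHat2 2.0.8b, HTSeq and CASAVA 1.8.2 with hg19 (GRCh37). The sources used here give no strand setting, annotation release or HTSeq version. A counter of this kind leaves out reads that fit several genes, which lowers genes with overlaps or close copies.

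The counter's summary rows, which name no gene and hold 36.0 to 37.6% of a library's total count, were left out. Genes passing edgeR's filterByExpr (minimum count 10, total 15), 13234 of 23228, were given TMM scaling and a robust quasi-likelihood fit in edgeR 4.0.16 (R 4.3.3), with group as its only term and calls at a Benjamini-Hochberg adjusted p under 0.05. The SE is the log2 fold change over the square root of F. The pipeline was tested on simulated data. Gene models, lengths and exon overlaps come from GENCODE release 44 mapped to GRCh37, which matched 19137 symbols (82.4%), and promoters from RefSeq GRCh38.p14. No protein sequence was used here.

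The 42 genes, the gene lists, the tests and the alternatives were chosen with earlier results of these data known. Levels per library are printed for the 6 largest rises and the falls past the threshold, for the most abundant gene of each role and for further genes needed to describe a complex, and outside the 42 for the 2 smallest adjusted p-values of a list in each direction. Within-library ratios were chosen after the values were seen. Alternatives were other scalings, filters and tests (DESeq2 1.42.0; limma 3.58.1 with voom), a replicate block, a length and GC trend, and leaving out each library in turn.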

Additional observations from a re-analysis of the deposited data

How the results depend on the processing

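None of the 19 cilium genes past the threshold changed direction in any of the 13 alternatives, and 6 of them (IFT57, IFT81, BBS4, DYNC2LI1, TCTN2 and TTC21B) passed in all 13. The alternatives reuse the libraries by which these genes were called, so a change of direction among them was unlikely in advance. Over the single-gene values of the 42 genes under the alternatives, 470 stayed on their side of the threshold, 41 no longer passed, 17 newly passed and 18 changed sign, and over those of other named genes the counts were 536, 49, 0 and 5. Among the 4 fits that left out 1 library, those without a control library called fewer of all genes than those without a PELP1 siRNA library, and the lone library of a group is then assumed to vary like the other group. Over these 4 fits the counts were 523 to 2724 higher and 943 to 2804 lower for all genes, 6 to 20 higher and 1 to 4 lower among the 42, and 8 to 31 higher and 2 to 11 lower among other cilium genes. DESeq2's Wald test called 1127 genes higher, 1 of the 42 lower and 15 other cilium genes higher. Scaling by total counts left 1 of the 42 lower and gave 2272 genes higher and 1597 lower, so that 41.3% of calls were lower instead of 53.6%. Removing a length and GC trend, possible for 11293 genes, gave 5 of the 42 lower, 20.1% of these genes higher and 22.0% lower. Among the 42, IFT88, WDR35 and TMEM67 newly passed as higher and BBS2 and CEP290 as lower with this trend removed. With scaling by total counts, IFT88, WDR35 and TMEM67 newly passed as higher. The cause of these shifts was not tested.

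The replicate numbers carry no stated pairing, and the differences between libraries 1 and 2 of the 2 groups correlated at r = -0.03 over 13234 genes. With the replicate number as a block, 14 of the 42 genes were higher and 3 lower, against 16 and 3 without it, with 1613 and 1968 calls among all genes, and KIFAP3 and AHI1 did not pass.

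Sign changes occurred only in genes that did not pass. With the length and GC trend removed they were IFT20 (-0.084), BBS7 (-0.017) and BBS12 (-0.026), and without a filter DYNC2H1 (-0.0041) and RFX5 (-0.00042). Over the fits without 1 library the log2 fold change ranged from -0.020 to 0.29 for IFT74, -0.018 to 0.089 for IFT140, -0.060 to 0.19 for IFT172, -0.062 to 0.11 for BBS7, -0.0076 to 0.064 for BBS12, -0.056 to 0.25 for ARL6, -0.18 to 0.21 for DYNC2H1, -0.049 to 0.17 for MKS1, -0.059 to 0.096 for RPGRIP1L, -0.015 to 0.032 for RFX5 and -0.062 to 0.096 for RFX7. EVC did not pass with the length and GC trend removed (-0.38, adjusted p = 0.173). The least abundant of the 42 genes, at 147 counts, carry the widest SE.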
